A study of Homo sapiens with 8 samples.

Results

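The genes described here make and regulate cholesterol in prostate cancer cells: 19 encode enzymes from acetoacetyl-CoA thiolase to the last reductase, 6 encode the SREBP transcription factors and proteins that hold or release them, and 5 act in sterol uptake, transport and storage. They were chosen by gene symbol from a fixed list of 32 symbols. SC4MOL and SC5DL, older symbols of MSMO1 and SC5D, matched no row, so the list stands for 30 genes. All 30 were listed in each of the 3 deposited tables, which together hold 16126 genes, and all 30 passed the filters on low values.

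Cells build cholesterol from acetyl-CoA through mevalonate, farnesyl diphosphate, squalene and lanosterol. When membranes of the endoplasmic reticulum hold little sterol, SCAP carries the SREBP precursors to the Golgi, where they are cut into transcription factors that switch on this pathway. When sterol is plentiful, the INSIG proteins keep SCAP and the SREBPs in place. In prostate tissue cholesterol is also the precursor of androgens, and the SREBP pathway is known to be stimulated by androgen.

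Messenger RNA of prostate cancer lines with acquired resistance to enzalutamide (ENZR), a drug that blocks androgen signalling, was set against that of their sensitive forms. C4-2BENZR was compared with C4-2B (2 libraries each, named biological replicates in the labels), CWR-R1ENZR with CWR-R1 and VCaPENZR with VCaP (1 library each). C4-2B is a castration-resistant descendant of LNCaP, CWR-R1 was derived from a relapsed xenograft and VCaP from a vertebral metastasis. All C4-2BENZR and C4-2B cells carried a luciferase and GFP transgene; for the other lines the labels name none. Each resistant form is a single line, and the sources used here do not give how it was selected or whether enzalutamide was present at harvest. Differences therefore hold between these lines, and in bulk RNA fewer cells of one kind and less RNA per cell cannot be told apart.

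The promoters of 5 of these genes are printed because each was lower in C4-2BENZR and because SREBPs work at promoters beside NF-Y and Sp1. Each is the 250 bases before the RefSeq start on GRCh38.p14, read 5′ to 3′ on the gene's strand. Capitals mark the classic sterol regulatory element, the CCAAT box bound by NF-Y, and the GC box GGGCGG bound by Sp1, on either strand (ATTGG and CCGCCC on the other); neighbouring GC boxes may overlap.
SREBF2 promoter, chr22:41832855-41833104, plus strand: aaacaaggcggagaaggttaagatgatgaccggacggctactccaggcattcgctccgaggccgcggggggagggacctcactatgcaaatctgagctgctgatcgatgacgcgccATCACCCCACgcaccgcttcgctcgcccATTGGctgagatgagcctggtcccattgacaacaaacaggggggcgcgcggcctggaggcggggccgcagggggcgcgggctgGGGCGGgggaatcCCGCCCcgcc
INSIG1 promoter, chr7:155297628-155297877, plus strand: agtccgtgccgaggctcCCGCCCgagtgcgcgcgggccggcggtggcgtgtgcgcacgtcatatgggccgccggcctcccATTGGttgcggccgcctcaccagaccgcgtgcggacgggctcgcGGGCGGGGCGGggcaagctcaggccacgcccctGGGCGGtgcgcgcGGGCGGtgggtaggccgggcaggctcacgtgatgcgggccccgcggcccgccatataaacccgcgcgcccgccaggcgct
STARD4 promoter, chr5:111512536-111512785, minus strand: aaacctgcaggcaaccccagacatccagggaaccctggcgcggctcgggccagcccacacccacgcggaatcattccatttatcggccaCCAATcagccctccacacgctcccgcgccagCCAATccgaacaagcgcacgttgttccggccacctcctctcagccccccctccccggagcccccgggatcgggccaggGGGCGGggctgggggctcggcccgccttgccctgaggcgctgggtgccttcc
MSMO1 promoter, chr4:165327419-165327668, plus strand: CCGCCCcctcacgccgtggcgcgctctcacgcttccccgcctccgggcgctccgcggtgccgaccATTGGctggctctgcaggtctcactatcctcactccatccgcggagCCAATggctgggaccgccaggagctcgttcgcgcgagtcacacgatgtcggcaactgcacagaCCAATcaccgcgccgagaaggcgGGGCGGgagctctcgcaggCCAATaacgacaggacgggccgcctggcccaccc
SREBF1 promoter, chr17:17836987-17837236, minus strand: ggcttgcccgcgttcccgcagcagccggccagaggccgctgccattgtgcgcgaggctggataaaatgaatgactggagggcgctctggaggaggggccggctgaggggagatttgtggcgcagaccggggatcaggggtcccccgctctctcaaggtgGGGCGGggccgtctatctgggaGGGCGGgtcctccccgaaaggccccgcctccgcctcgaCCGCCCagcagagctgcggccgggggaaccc

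Of these 5, the SREBF2 window alone holds the sterol regulatory element searched for (its 10 letters are the capitals that begin there), the first base 134 bases before the start. The MSMO1 window holds 4 CCAAT boxes and the SREBF1 window none. Over all members, 26 genes matched the RefSeq promoter table with 33 promoters. The sterol regulatory element stood in 1 of the 33, against 12 of all 35116 promoters in the table (0.0342%). A CCAAT box stood in 63.6% of the members' promoters against 32.0% of all, and a GC box in 90.9% against 42.6%. The CCAAT box was present for 12 of the 17 matched genes that were lower in C4-2BENZR and for 7 of the 9 others. These are matches of letters in a short window and do not show that a factor bound there.

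The libraries held 14503586 to 20248655 reads in listed genes. Levels below are reads divided by a scaled library size as the authors deposited them, on a scale close to CPM, and 1 read is worth 0.0473 to 0.0675. The 3 tables were normalized separately. The library labelled VCaPENZR did not resemble VCaP: over the 12868 genes listed in all tables its log2 levels correlated at 0.940 with CWR-R1ENZR, 0.890 with CWR-R1 and 0.728 with VCaP, and ERG, the fusion partner that marks VCaP, was at 0.179 in it against 428 in VCaP. The 6 prostate epithelium markers did not move one way: in C4-2BENZR KLK3 (49.2 and 48.1, against 2067 and 2024 in C4-2B) and HOXB13 were lower, while KLK2 (211 and 225, against 107 and 109 in C4-2B), TMPRSS2, KRT8 and KRT18 were higher. In CWR-R1ENZR KLK3 (0, against 1.96 in CWR-R1) and KLK2 (0.134, against 4.72) were lower, while HOXB13 (83.4, against 53.6), TMPRSS2 (55.8, against 26.2), KRT8 and KRT18 were higher. The summed level of fibroblast markers was 50.6 to 54.9 in C4-2BENZR against 13.4 to 17.7 in C4-2B, 66.4 in CWR-R1ENZR against 33.8 in CWR-R1, and 17.3 in the library labelled VCaPENZR against 29.5 in VCaP. Of 5 fibroblast markers, 3 were listed for C4-2B and 2 for each other lineage. COL1A1 made up most of the sums in C4-2BENZR (53.4 and 48.2). In CWR-R1ENZR and in the library labelled VCaPENZR, COL1A1 was higher and LUM lower than in the sensitive library. Of 3 endothelial markers only VWF was listed. VWF was at 3.54 and 3.88 in C4-2BENZR, against 7.53 and 7.25 in C4-2B. It was at 26.5 in CWR-R1ENZR against 5.73 in CWR-R1, and at 18.6 in the library labelled VCaPENZR against 3.13 in VCaP. The summed level of 5 proliferation markers was 1285 to 1300.3 in C4-2BENZR against 1279.6 to 1308 in C4-2B. It was 982 in CWR-R1ENZR against 1483 in CWR-R1, and 1231 in the library labelled VCaPENZR against 884 in VCaP. The even sum in C4-2BENZR hid opposite moves. TOP2A (182 and 174, against 252 and 258 in C4-2B), CCNB1 and PCNA were lower there. CDK1 (533 and 521, against 401 and 445 in C4-2B) was higher, and the MKI67 groups overlapped. The part of these differences in the results below was not tested.

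In C4-2BENZR, 19 of the 30 sterol genes were lower and 3 were higher than in C4-2B (limma on log2(value + 1), Benjamini-Hochberg adjusted p below 0.05). Over all 13280 genes tested, 29.0% were lower, 27.8% higher and 56.8% called in either direction, while 63.3% of the sterol genes were lower. The members' median log2 change was −0.23, and that of all genes was −0.00075. The lower genes included both SREBP genes, INSIG1, the first enzyme committed to sterols (FDFT1) and, by the widest margin, the sterol carrier gene STARD4. Most of the changes were small. On the log2(value + 1) scale 7 of the 19 reached 1.5-fold, which is 23.3% of the members against 10.9% of all genes. None of the 3 higher genes did, against 12.5% of all genes. In 20 of the 30 genes both C4-2BENZR libraries lay below both C4-2B libraries (66.7%, against 38.9% of all genes). In 6 of the 30 both lay above, against 38.4% of all genes. Reads in the 30 genes made up 0.334% and 0.337% of all reads in C4-2BENZR, against 0.473% and 0.480% in C4-2B. Without SREBF1 the summed level of the other 29 was still 2760 and 2809 in C4-2BENZR, against 3689 and 3799.8 in C4-2B.

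**Figure D1:**
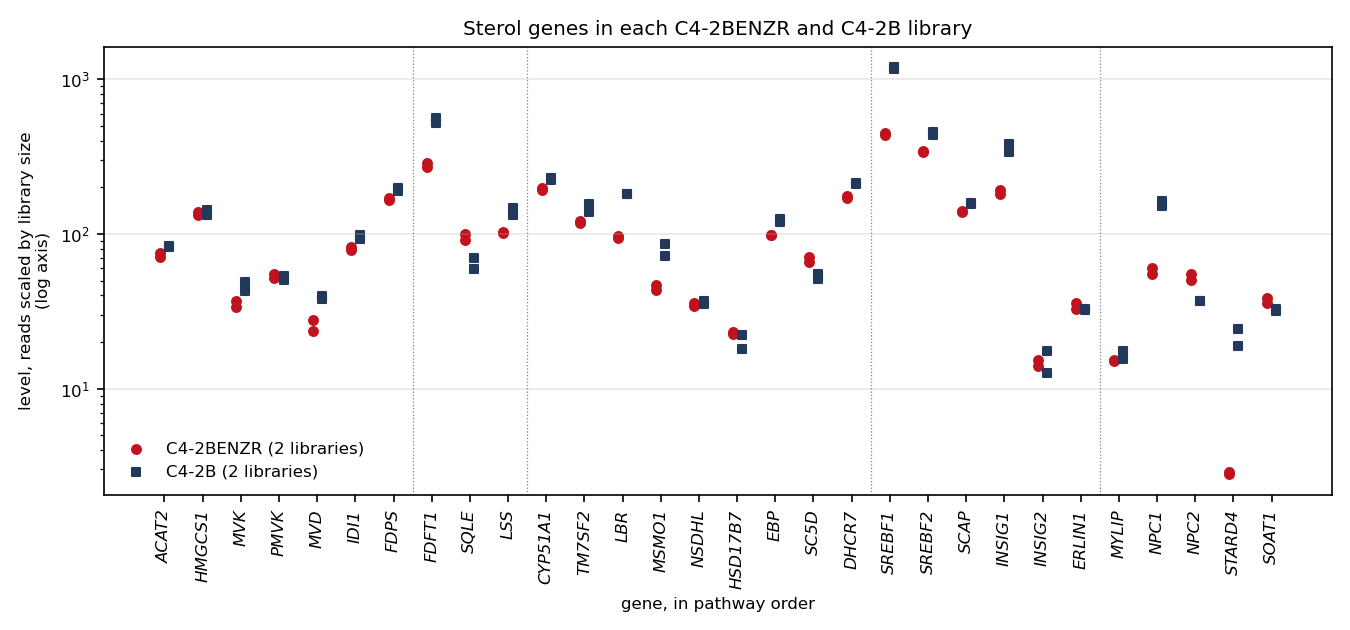
Level of each of the 30 sterol genes (reads scaled by library size, log axis) in the 2 C4-2BENZR libraries (circles) and the 2 C4-2B libraries (squares), in pathway order with dotted lines between groups of genes. STARD4, NPC1, SREBF1, FDFT1, LBR, INSIG1 and MSMO1 show the widest gaps, with C4-2BENZR below C4-2B. SQLE, SC5D and NPC2, the genes called higher, lie above it.

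SREBF1, whose products are the SREBP-1 factors that mainly drive fatty acid genes, was at 438 and 447 in C4-2BENZR, against 1194 and 1159 in C4-2B. It fell 2.66-fold (log2 change −1.41 ± 0.047 SE; limma adjusted p = 4.49e-13), and the groups were far apart beside their spread. SREBF2, whose product SREBP-2 mainly drives cholesterol genes, was at 339 and 341 in C4-2BENZR, against 456 and 436 in C4-2B, a smaller fall of 1.31-fold (−0.39 ± 0.049; limma adjusted p = 4.33e-06). INSIG1, itself a target of the SREBPs, was at 181 and 193 in C4-2BENZR, against 339 and 379.7 in C4-2B (−0.94 ± 0.059; limma adjusted p = 1.33e-09). The 20 nearest measured genes beside INSIG1 had a median log2 change of −0.32, with 14 of them below 0. The change of INSIG1 differed from that median by −0.62. The INSIG1 paralogue INSIG2 did not pass the test, at 14.1 and 15.3 in C4-2BENZR, against 12.6 and 17.5 in C4-2B (limma adjusted p = 0.917), and there the C4-2BENZR libraries lay between those of C4-2B. SCAP, the escort protein, was at 138 and 141 in C4-2BENZR, against 158 and 156 in C4-2B (−0.17 ± 0.055; limma adjusted p = 0.0164). The SCAP call did not hold after scaling by total counts alone (limma adjusted p = 0.324) or without C4-2BENZR replicate 1 (0.108), C4-2BENZR replicate 2 (0.0588) or C4-2B replicate 1 (0.0596). ERLIN1, which binds SCAP complexes in the endoplasmic reticulum, had a log2 change of 0.08 and did not pass (limma adjusted p = 0.514).

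In the steps that lead to farnesyl diphosphate, 5 of 7 genes fell, none by 1.5-fold on the log2(value + 1) scale, and the other 2 did not pass. MVD, the mevalonate diphosphate decarboxylase, came nearest, at 27.6 and 23.7 in C4-2BENZR, against 39.4 and 37.9 in C4-2B (−0.58 ± 0.10; limma adjusted p = 0.000135). As a ratio of group means its fall was 1.51-fold. The 20 nearest measured genes beside MVD had a median log2 change of −0.37, with 18 of them below 0. The change of MVD differed from that median by −0.21. MVK, the mevalonate kinase, was at 33.8 and 37.0 in C4-2BENZR, against 49.3 and 42.6 in C4-2B (−0.36 ± 0.094; limma adjusted p = 0.00343). FDPS, which makes farnesyl diphosphate, was at 171 and 167 in C4-2BENZR, against 189 and 198 in C4-2B (−0.19 ± 0.054; limma adjusted p = 0.00575); its processed pseudogenes could take some of its reads. The FDPS groups did not overlap, but the call did not hold after scaling by total counts alone (limma adjusted p = 0.146) or without C4-2BENZR replicate 2 (0.0508). The isomerase gene IDI1 fell by 0.25 on the log2 scale, a call that scaling by total counts alone removed (limma adjusted p = 0.0624). The thiolase gene ACAT2 fell by 0.17 on the log2 scale (limma adjusted p = 0.0366). That call held with limma-voom (0.0445) and with edgeR on median-of-ratios size factors (0.0474), but not with edgeR on trimmed mean of M-values scaling (0.0506), with DESeq2 (0.114), after scaling by total counts alone (0.376) or without any single library (0.0561 to 0.252), and ACAT2 shares exon positions with TCP1 on the opposite strand. HMGCS1, the HMG-CoA synthase and a classic SREBP-2 target, showed no gap: it was at 133 and 139 in C4-2BENZR, against 132 and 142 in C4-2B (limma adjusted p = 0.880). The phosphomevalonate kinase gene PMVK was likewise at 55.2 and 52.2 in C4-2BENZR, against 53.4 and 50.7 in C4-2B (limma adjusted p = 0.646).

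The 3 genes that lead from farnesyl diphosphate to lanosterol went different ways. FDFT1, squalene synthase, was at 271 and 286 in C4-2BENZR, against 523 and 564 in C4-2B. That is a 1.95-fold fall (−0.96 ± 0.053, limma adjusted p = 2.21e-10). The 20 nearest measured genes beside FDFT1 had a median log2 change of −0.42, with 19 of them below 0. Its own change differed from that median by −0.54. SQLE, the squalene epoxidase that acts next, rose: it was at 91.3 and 100.2 in C4-2BENZR, against 59.4 and 70.0 in C4-2B (0.56 ± 0.080; limma adjusted p = 1.73e-05). LSS, lanosterol synthase, fell again, at 103 and 101 in C4-2BENZR, against 146 and 133 in C4-2B (−0.45 ± 0.062; limma adjusted p = 1.16e-05). SQLE thus lay between neighbours in the pathway that moved the other way, with no overlap between groups for any of the 3.

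Of the 9 genes that take lanosterol to cholesterol, 6 fell, 1 rose and 2 did not pass. LBR, a sterol C14 reductase that also anchors lamin B at the nuclear envelope, was at 94.7 and 96.4 in C4-2BENZR, against 182 and 181 in C4-2B (−0.92 ± 0.056; limma adjusted p = 8.97e-10). TM7SF2, which encodes the other C14 reductase and shares exon positions with VPS51 on the same strand, was at 122 and 118 in C4-2BENZR, against 156 and 138 in C4-2B, a smaller fall (−0.29 ± 0.065; limma adjusted p = 0.00109). MSMO1, the C4-methylsterol oxidase, was at 43.2 and 47.1 in C4-2BENZR, against 72.2 and 86.5 in C4-2B (−0.80 ± 0.087; limma adjusted p = 9.09e-07). EBP, the sterol isomerase, was at 97.9 and 98.7 in C4-2BENZR, against 119 and 124 in C4-2B (−0.30 ± 0.060; limma adjusted p = 0.000426), with no overlap. The lanosterol demethylase gene CYP51A1 and the final reductase gene DHCR7 fell by 0.22 and 0.28 on the log2 scale (limma adjusted p = 0.00215 and 0.000244), and the CYP51A1 call did not hold after scaling by total counts alone (0.0604). SC5D, the lathosterol desaturase, rose and was at 65.7 and 70.7 in C4-2BENZR, against 51.1 and 54.9 in C4-2B (0.36 ± 0.075; limma adjusted p = 0.000734). NSDHL and HSD17B7, the other enzymes of C4 demethylation, had changes of −0.03 and 0.18 (limma adjusted p = 0.774 and 0.205); HSD17B7 has near-identical pseudogene copies that could share its reads.

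The widest changes lay in sterol transport. STARD4, which carries cholesterol between membranes, was at 2.79 and 2.90 in C4-2BENZR (59 and 50 reads), against 18.9 and 24.4 in C4-2B (367 and 472 reads), a 7.63-fold fall (−2.55 ± 0.17; limma adjusted p = 2.06e-09). The 20 nearest measured genes beside it, in RefSeq order, had a median log2 change of −0.34, so its own change differed from theirs by −2.21. NPC1, the lysosomal membrane protein that exports cholesterol, was at 60.4 and 55.2 in C4-2BENZR, against 152 and 163 in C4-2B (−1.43 ± 0.067; limma adjusted p = 3.30e-11). NPC2, the soluble protein that hands cholesterol to NPC1, went the other way, at 50.1 and 55.5 in C4-2BENZR, against 36.6 and 37.0 in C4-2B (0.51 ± 0.084; limma adjusted p = 8.37e-05). SOAT1, which esterifies cholesterol for storage, was at 38.4 and 35.7 in C4-2BENZR, against 32.8 and 31.9 in C4-2B and did not pass (limma adjusted p = 0.0856), although its groups did not overlap and scaling by total counts alone brought it past the threshold (0.0120). MYLIP, a ubiquitin ligase that limits lipoprotein uptake, was at 15.36 and 14.998 in C4-2BENZR, against 17.5 and 15.5 in C4-2B (limma adjusted p = 0.489). SQLE and NPC2 are given in full because they rose, a choice made after their values were seen.

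**Figure D2:**
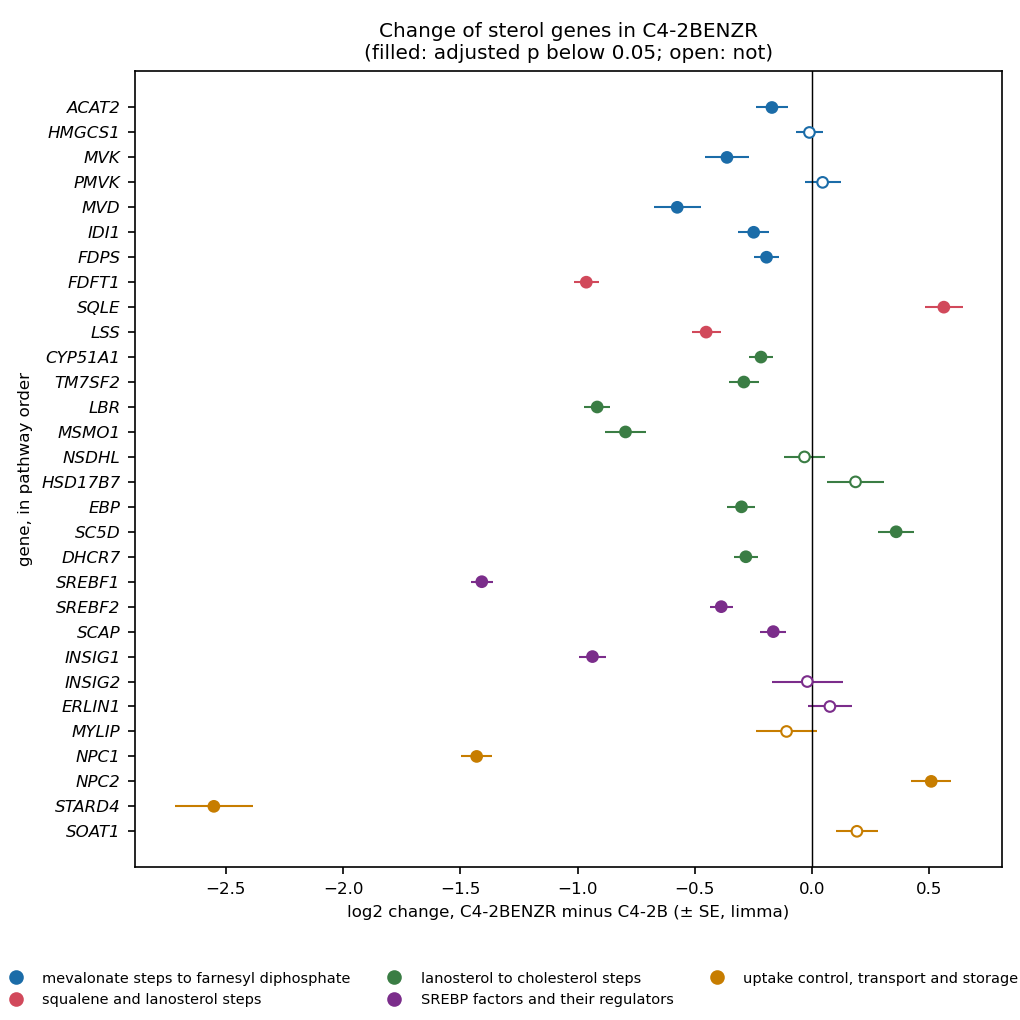
Log2 change of each sterol gene (C4-2BENZR minus C4-2B, with its standard error from limma), in pathway order and coloured by group of genes; filled points passed an adjusted p of 0.05 and open points did not. The points run from −2.55 for STARD4 to 0.56 for SQLE, and 19 filled points lie left of 0 against 3 to the right.

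Replicates of C4-2BENZR differed by a median of 0.06 on the log2 scale over the 30 genes, and at most by 0.21 (MVD). Replicates of C4-2B differed by a median of 0.09 and at most by 0.44 (INSIG2). The 1.5-fold threshold lies above the largest of these gaps, so the 7 genes past it exceed that gap by the way they were chosen. The median change of the nearest measured genes was between −0.47 (beside HMGCS1) and 0.24 (beside CYP51A1) for all 30 genes. It was taken over 20 neighbours, except 16 for IDI1 and 17 for LSS. With the authors' own test, 23 of the 30 genes had a false discovery rate below 0.05 in the authors' deposited table for this lineage, against 55.6% of all its genes, which adds SOAT1 to the 22 above.

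In CWR-R1ENZR, with 1 library on each side, values have no replicate check and no test, and the 95% intervals cover counting error only. On the log2(value + 1) scale 5 of the 30 genes were at least 2-fold lower and 0 were at least 2-fold higher than in CWR-R1, that is 16.7% of members lower against 10.3% of the 12462 genes compared; 9.79% of all genes were 2-fold higher. At 1.5-fold, 11 were lower (36.7%, against 20.9% of all genes) and 0 higher (against 19.0% of all genes). The members' median was −0.19 and that of all genes −0.02.

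SREBF1 was at 230.1 in CWR-R1ENZR, against 502 in CWR-R1, 2.18-fold lower (interval 2.09 to 2.27). SREBF2 differed little, at 467 in CWR-R1ENZR, against 496 in CWR-R1. INSIG1 was at 115 in CWR-R1ENZR, against 189 in CWR-R1 (1.64-fold lower; 1.55 to 1.75), and INSIG2 was low in both, at 7.51 in CWR-R1ENZR, against 7.49 in CWR-R1. SCAP was at 133 in CWR-R1ENZR, against 121 in CWR-R1, so that among the regulators SREBF1, INSIG1 and ERLIN1 (35.0 in CWR-R1ENZR, against 60.0 in CWR-R1) were the ones lower by at least 1.5-fold.

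Among the enzymes, HMGCS1 was at 104 in CWR-R1ENZR, against 227 in CWR-R1 (2.18-fold lower; 2.05 to 2.31). MVK was at 16.1 in CWR-R1ENZR, against 36.0 in CWR-R1 (2.24-fold lower; 1.92 to 2.62), and FDFT1 at 141 in CWR-R1ENZR, against 296 in CWR-R1 (2.10-fold lower; 2.00 to 2.22), under 2-fold after scaling by total counts alone (log2 ratio −0.99). The 20 nearest measured genes had a median log2 ratio of −0.71 beside MVK, with 19 of them below 0. That median was −0.40 beside FDFT1, with 17 below 0, and 0.08 beside HMGCS1. CYP51A1 was at 128 in CWR-R1ENZR, against 252 in CWR-R1, and LBR at 101 in CWR-R1ENZR, against 199 in CWR-R1. Both were 1.96-fold lower and so just short of 2-fold. EBP (44.7 in CWR-R1ENZR, against 78.9 in CWR-R1) and MSMO1 (54.8, against 96.5) were also at least 1.5-fold lower. Early, middle and late steps were thus represented among the lower genes, yet several enzymes were not lower. MVD was at 74.9 in CWR-R1ENZR, against 50.3 in CWR-R1 (1.49-fold higher; 1.36 to 1.64), LSS at 113 in CWR-R1ENZR, against 83.1 in CWR-R1 (1.36-fold higher; 1.26 to 1.47), and SC5D at 106 in CWR-R1ENZR, against 79.1 in CWR-R1 (1.34-fold higher; 1.24 to 1.45). TM7SF2 was at 118 in CWR-R1ENZR, against 115 in CWR-R1. PMVK was at 53.3 in CWR-R1ENZR, against 53.2 in CWR-R1, so both were near equal.

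Among the transport and storage genes SOAT1 was at 41.9 in CWR-R1ENZR, against 94.9 in CWR-R1 (2.26-fold lower; 2.06 to 2.49). STARD4 and NPC1, the genes with the widest falls in C4-2BENZR, were slightly higher here: STARD4 was at 53.4 in CWR-R1ENZR, against 47.0 in CWR-R1 (1.14-fold higher; 1.02 to 1.26), and NPC1 at 60.9 in CWR-R1ENZR, against 50.6 in CWR-R1 (1.20-fold higher; 1.09 to 1.33). No gene of the 30 had a false discovery rate below 0.05 in the authors' deposited table for this lineage (0 of 30, against 9.89% of all its genes).

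The comparison of the library labelled VCaPENZR with VCaP is given as deposited, but the library resembled CWR-R1ENZR. Over the 30 genes its levels lay within 2-fold of those in CWR-R1ENZR for 29, within 2-fold of CWR-R1 for 22 and within 2-fold of VCaP for 16, across tables normalized separately. The gene outside 2-fold of CWR-R1ENZR was LSS, at 50.4 in the library labelled VCaPENZR and 113 in CWR-R1ENZR. Differences from VCaP can therefore not be told apart from differences between cell lines.

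**Figure D3:**
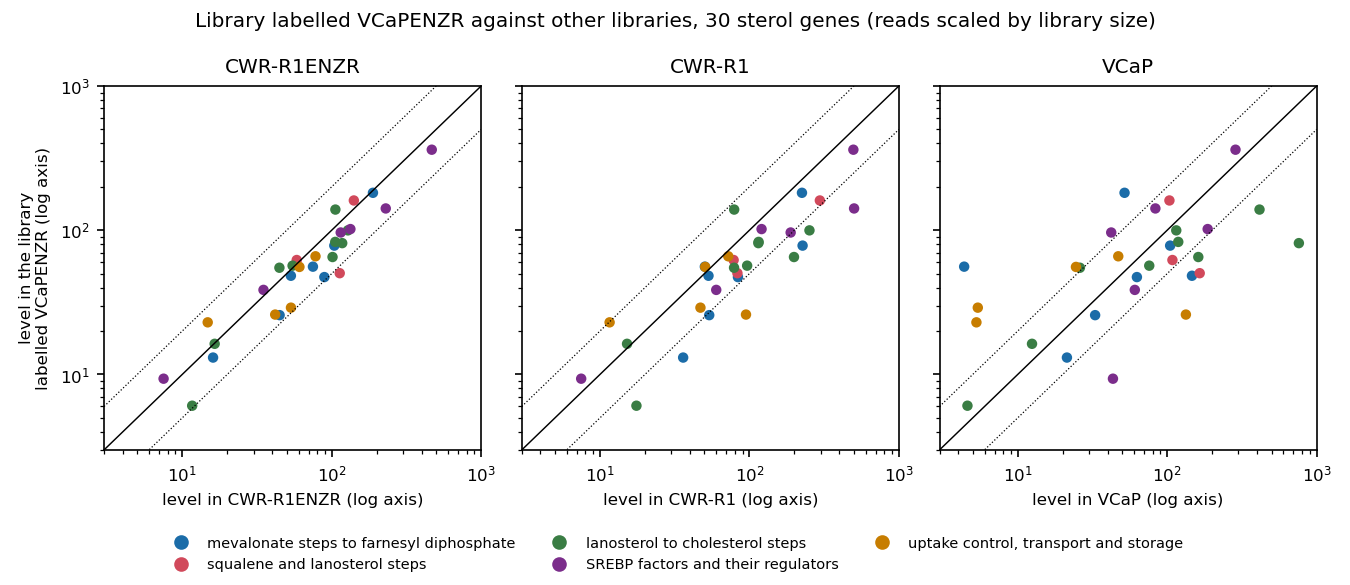
Level of the 30 sterol genes in the library labelled VCaPENZR (vertical, log axis, reads scaled by library size) against CWR-R1ENZR, CWR-R1 and VCaP (horizontal, log axis), 1 point per gene coloured by group of genes; the solid line marks equal levels and the dotted lines 2-fold. Within the dotted lines on the scale of value + 1 lie 29 points for CWR-R1ENZR, 22 for CWR-R1 and 16 for VCaP.

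In the library labelled VCaPENZR, 7 genes were at least 2-fold lower and 7 at least 2-fold higher than in VCaP, 23.3% of the members each way against 22.0% and 21.1% of the 12502 genes compared, so the members' share was near that of all genes. The members' median log2 ratio was −0.37 and that of all genes 0.0048. The lower genes were TM7SF2 (81.4 in the library labelled VCaPENZR, against 761 in VCaP; 9.35-fold, interval 8.84 to 9.89), SOAT1 (26.02 against 133), INSIG2 (9.35 against 43.4), LSS (50.4 against 165), PMVK (48.3 against 147), SC5D (139 against 415) and LBR (65.2 against 162). The higher genes were MVD (55.9 in the library labelled VCaPENZR, against 4.38 in VCaP; 12.8-fold, interval 10.1 to 16.3), STARD4 (29.1 against 5.41), MYLIP (22.98 against 5.29), FDPS (182 against 51.9), INSIG1 (96.5 against 42.2), NPC1 (55.7 against 24.5) and EBP (55.0 against 26.1). TM7SF2 was thus high and MVD low (77 reads) in VCaP itself, and neither stood apart in this way in the other 2 sensitive lines. TM7SF2 was at 138 to 156 in C4-2B and 115 in CWR-R1. MVD was at 37.9 to 39.4 in C4-2B and 50.3 in CWR-R1. For several of these genes the neighbours moved too: the median log2 ratio of the nearest measured genes was 1.83 beside MVD, 1.65 beside MYLIP and −2.05 beside LSS, against −0.72 beside TM7SF2. SREBF1 was at 142 in the library labelled VCaPENZR, against 83.4 in VCaP, SREBF2 at 362 against 287, and SCAP at 102 against 187. In the authors' deposited table for this lineage 8 of the 30 genes had a false discovery rate below 0.05, against 31.0% of all its genes.

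Side by side, 12 of the 19 genes that fell in C4-2BENZR were also lower in CWR-R1ENZR than in CWR-R1 by any amount, against 51.0% of all genes, and 8 of them by at least 1.5-fold, against 20.9% of all genes. Those shares are over all genes compared in CWR-R1, and the share among genes that fell in C4-2BENZR was not counted. At 1.5-fold, 10.9% of all genes were called lower in C4-2BENZR and 20.9% were lower in CWR-R1ENZR. The share of all genes passing both was not counted. Both comparisons passed 1.5-fold lower for 5 genes: SREBF1, INSIG1, FDFT1, LBR and MSMO1. Their log2 changes in C4-2BENZR and CWR-R1ENZR were −1.41 and −1.12 for SREBF1, −0.94 and −0.71 for INSIG1, −0.96 and −1.07 for FDFT1, −0.92 and −0.96 for LBR, and −0.80 and −0.81 for MSMO1. The neighbours of FDFT1 were lower in both too (median −0.42 in C4-2BENZR and −0.40 in CWR-R1ENZR). In the library labelled VCaPENZR, LBR alone of these 5 was also at least 1.5-fold lower (−1.30). MSMO1 was at −0.41 there, and the other 3 were higher than in VCaP. The other 7 of the 19 were higher in CWR-R1ENZR by any amount, MVD (0.56) and LSS (0.44) by the most. In turn HMGCS1, ERLIN1 and SOAT1 were at least 1.5-fold lower in CWR-R1ENZR and did not pass in C4-2BENZR. Of the 3 genes that rose in C4-2BENZR, SQLE was lower in CWR-R1ENZR (log2 ratio −0.42), while SC5D (0.42) and NPC2 (0.11) were higher. The counting interval of the NPC2 ratio, 0.99 to 1.17, included 1. These differences between lineages were not tested, since the tables were normalized separately and CWR-R1 has no replicates.

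**Figure D4:**
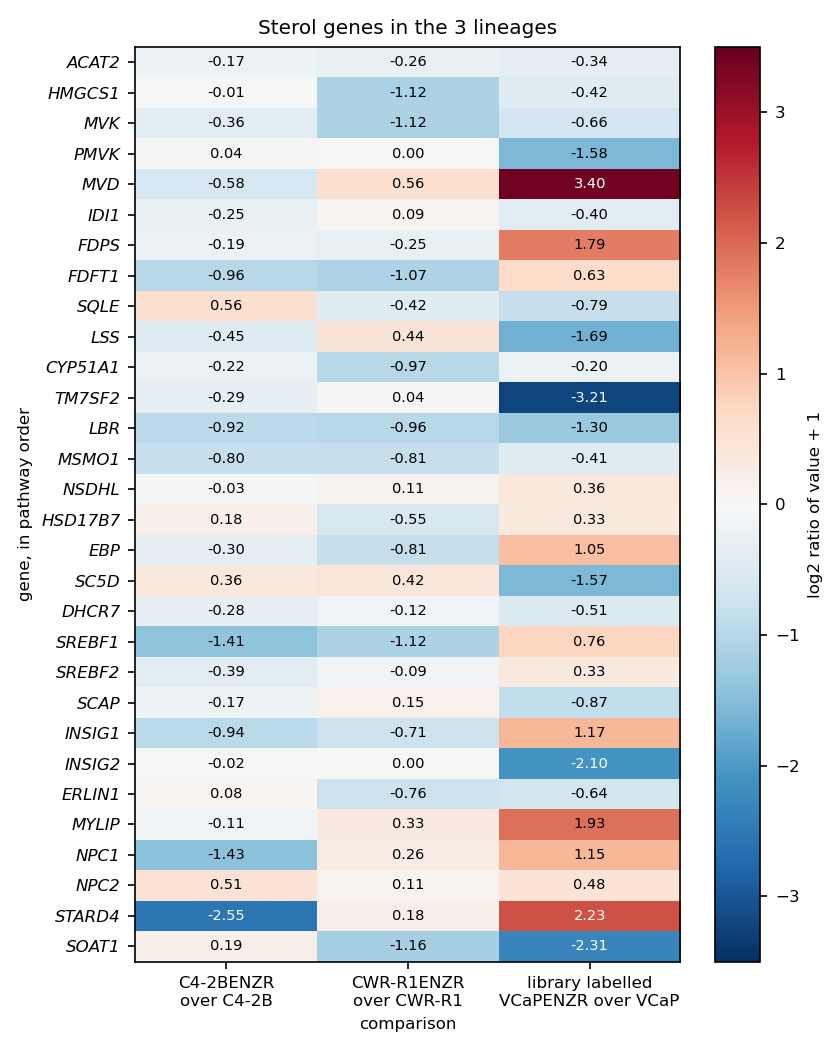
Log2 ratio of value + 1 (resistant over sensitive; blue lower, red higher) of the 30 sterol genes in C4-2BENZR, CWR-R1ENZR and the library labelled VCaPENZR, each over the sensitive library or libraries of its own table. SREBF1, INSIG1, FDFT1, LBR and MSMO1 are blue in the first 2 columns, and the third column has the most extreme values, from −3.21 for TM7SF2 to 3.40 for MVD.

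Other genes of sterol handling, taken from 5 lists of 42 genes, were called lower or higher in C4-2BENZR at shares near those of all genes. Of these, 11 of the 38 tested fell (28.9%, against 29.0% of all genes) and 9 rose (23.7%, against 27.8%), with a median log2 change of −0.08. The lists are short, and their counts are read against the same shares of all genes. Among proteins that process SREBPs or mark sterol sensors for degradation, 5 of 8 fell and 0 rose, among them RNF139, a ubiquitin ligase of the endoplasmic reticulum, at 25.3 and 23.5 in C4-2BENZR, against 33.1 and 30.2 in C4-2B (−0.36 ± 0.10; limma adjusted p = 0.00687). Of the isoprenoid branch genes 4 of 9 fell and 1 rose, with GGPS1, which makes geranylgeranyl diphosphate, at 28.8 and 30.9 in C4-2BENZR, against 45.0 and 44.9 in C4-2B (limma adjusted p = 4.06e-05), and PDSS2, a subunit of the enzyme for the coenzyme Q side chain, at −0.52 (limma adjusted p = 0.000345).

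In the uptake list 1 of 7 fell and 2 rose. SCARB1, the receptor for high-density lipoprotein, was at 129 and 136 in C4-2BENZR, against 232 and 236 in C4-2B (−0.82 ± 0.054; limma adjusted p = 2.25e-09), and it was also 2.72-fold lower in CWR-R1ENZR (77.5, against 211 in CWR-R1). LRP8, a lipoprotein receptor of the same family as VLDLR, rose, at 109 and 100.01 in C4-2BENZR, against 62.4 and 55.6 in C4-2B (0.81 ± 0.074; limma adjusted p = 1.06e-07). In the storage and transfer list 1 of 9 fell and 4 rose, led by STARD3NL, which tethers late endosomes to the endoplasmic reticulum, at 41.4 and 44.8 in C4-2BENZR, against 20.5 and 23.6 in C4-2B (limma adjusted p = 8.17e-07), and GRAMD1C, a sterol transfer protein, at 7.14 and 9.38 in C4-2BENZR, against 4.59 and 5.80 in C4-2B (limma adjusted p = 0.0136). In the LXR and oxysterol list 0 of 5 fell and 2 rose: the oxysterol hydroxylase gene CYP7B1, at 3.17 and 4.57 in C4-2BENZR and without a read in either C4-2B library, and HSD3B7 (0.37; limma adjusted p = 0.00105). In CWR-R1ENZR the other genes of these lists past 2-fold were PDSS1 (5.03, against 15.1 in CWR-R1), STARD3 (74.8, against 33.3) and GRAMD1A (135, against 37.8).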

How the data were processed

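Polyadenylated RNA was sequenced as paired ends, and the authors' differential expression came from TAC genomics, per the labels' protocols. Gene models were on hg19 per the submitters' processing notes, and no source used here names the aligner or counter. Each lineage has 1 deposited table, in which the authors had scaled the counts of each library to give signal values: 100.0% of them were whole multiples of the worth of 1 read (tolerance 0.02 reads). The deposited score column is a signed fold, and the deposited p-value columns come from a test not given; neither entered the results, except the false discovery rates named as the authors'.

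Whole reads were recovered by division. In the C4-2B table a gene entered the fit where 2 or more libraries reached 1, and limma 3.58.1 was applied to log2(value + 1) (trend, 2 libraries against 2, no block, two-sided), adjusted over all 13280 genes. The fit was tested on simulated data. Folds are ratios of group means. In the main results the thresholds of 1.5-fold and 2-fold were applied to log2(value + 1). CWR-R1 and VCaP ratios cover genes that reached 5 in either library; 95% intervals are exact (Clopper-Pearson) from recovered reads. Reads carry no molecular identifiers, so intervals cover counting error only. P-values cover the spread between the libraries of 1 line each. Alternatives used edgeR 4.0.16, DESeq2 1.42.0, limma-voom and other scalings, filters and pseudocounts. Neighbours are the 10 measured genes on each side in the RefSeq order of GRCh38.p14, or fewer near a chromosome end. Strand use in counting is not given, so reads of genes that overlap on opposite strands cannot be told apart: by GENCODE exons this touches ACAT2, CYP51A1, FDPS, IDI1, MVK and STARD4.

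The members, lists and tests were chosen with earlier results of these data known. Genes given with the value of every C4-2BENZR and C4-2B library, beside SQLE and NPC2, were those called at 1.5-fold or more in C4-2B, those past 2-fold in another lineage, and the SREBP factors, SCAP and the INSIG genes; of the other lists, the 2 called genes with the widest change in C4-2B and those past 2-fold in CWR-R1ENZR. One gene that this rule names is not reported here.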

Additional observations from a re-analysis of the deposited data

Results flagged for a closer look

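For 5 genes the library labelled VCaPENZR differed from VCaP in the direction opposite to the change in C4-2BENZR, by at least 1.5-fold in both: STARD4 (log2 2.23 in the library labelled VCaPENZR, −2.55 in C4-2BENZR), NPC1 (1.15 and −1.43), INSIG1 (1.17 and −0.94), SREBF1 (0.76 and −1.41) and FDFT1 (0.63 and −0.96). The difference between lineages was not tested, and the library labelled VCaPENZR resembled CWR-R1ENZR more than VCaP. Set against CWR-R1 no gene of the 30 met this rule (0 genes).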

How the results depend on the processing

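In C4-2B the number of sterol genes at least 1.5-fold lower was 7 or 8 under every alternative that was run, and 14 to 19 were lower and 3 or 4 higher. After scaling by total counts alone the calls over all genes split into 4748 higher and 2924 lower, against 3691 and 3856, members into 4 higher and 14 lower, and the members' median moved to −0.13 while that of all genes moved to 0.095. With edgeR (trimmed mean of M-values) on recovered reads 3767 genes were higher and 3755 lower (members 3 and 18), and with DESeq2 3151 and 3227 (members 3 and 18). With 1 library left out in turn, 16 to 18 members were lower, 3 to 4 were higher, 7 to 8 were lower by 1.5-fold or more, the median was −0.25 to −0.20, and 3254 to 3373 genes were lower and 2694 to 3465 higher. With the replicate block 19 members were lower and 3 higher, with 4036 genes higher and 4212 lower overall; same-numbered libraries correlated at 0.050 in their deviations, so the numbers were not taken as pairs. In C4-2B no member had neighbours with a median beyond 0.5, so leaving such members out changed nothing. That shift of all genes exceeds the total-count values of 3 genes that did not pass: HMGCS1 reversed to 0.090 with total counts and spanned −0.062 to 0.038 with 1 library left out. INSIG2 reversed to 0.075 with total counts and spanned −0.24 to 0.20, and NSDHL reversed to 0.066 with total counts. In CWR-R1 the median was −0.11 with total counts and −0.25 among genes at 10 or more, and 11 members were lower at 1.5-fold. The neighbours of MVK and FDPS there had medians beyond 0.5 (log2 −0.71 and 0.51). In VCaP the median was −0.28 with total counts, and at 1.5-fold 11 members were lower and 9 higher, against 32.0% and 30.9% of all genes. The cause of these shifts was not tested.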
